A study of Bos taurus with 18 samples.

Results

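The genes described here were 70 of the 24596 genes counted in cultured cattle fibroblasts, chosen because their transcripts were most abundant at the stage labelled senescent. Levels are CPM, counts per 1e+06 counts of the library. In the Simmental-like line a member had a mean of at least 10 CPM over the 3 senescent libraries, at least 4 times the mean of the 3 primary and of the 3 immortalized libraries, and more than 3 counts over the immortalized ones. These values chose the members, so the senescent peak itself is given as a description, with no test. Of 9036 genes at 10 CPM or more in the senescent libraries, 73 met the rule (0.808%), and 3 of them, PPARGC1A, CXCL8 and CCL2, were left out of the set by name. A symbol was given for 64 members, and 6 carried only an Ensembl identifier and are counted but not named.

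Fibroblasts were isolated from Holstein and Simmental cows, kept in long-term culture, and sequenced as primary, senescent and spontaneously immortalized cells, with 3 RNA libraries per stage and line (18 in all). The Simmental-like cultures are named PBF-13, Sn-BF-13 and HUN-BF-13 and the Holstein-like ones PBF-15, Sn-BF-15 and HUN-BF-15. Apart from the word Xray in the senescent Simmental-like library names below, no other treatment or genetic change is named in the labels. Body site and number of animals are not given there. Library names differ by stage as well: primary Simmental-like ones carry BDF-20-3B-4, senescent ones carry BDF-20-MultiXray-Ctrl, and BF-13 stands in the immortalized ones. The name MultiXray-Ctrl reads as the control of an X-ray treatment, which was not examined further. Holstein-like names carry BEF at the primary, BF-15-P9 at the senescent and BF-15-P23 at the immortalized stage, and their count columns end in Rerun. Stage and culture therefore cannot be told apart.

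Senescent cells have left the cell cycle for good but stay metabolically active. Many of them release a mixture of cytokines, chemokines, growth factors and proteases, the senescence-associated secretory phenotype, much of which is driven by the transcription factor NF-kB and by interleukin 1 acting on the cell that makes it. In fibroblasts this secretion is known for drawing in leukocytes and for remodelling the surrounding matrix.

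Total counts ranged from 18.2 to 23.2 M (M for 1e+06) in Simmental-like and from 1.42 to 14.1 M in Holstein-like libraries. Fibroblast markers were abundant at every Simmental-like stage: a list of 14 summed to 54094 to 68100 CPM in primary, 40997 to 41309 in senescent and 54227 to 60685 in immortalized libraries, with only TCF21 at 0. The sum was thus lowest where the members peaked. By edgeR with TMM scaling, 12 of the 13 tested markers were lower and 1 higher in senescent than primary libraries. Their median log2 change was -1.23, where 29.7% of all 13091 tested genes were lower and the median was 0.01. Another 5 calls were higher and 0 lower in immortalized than senescent libraries. CPM rest on column totals, a scale on which the median log2 change between senescent and primary libraries lies 0.46 higher. THY1 was called lower (log2 change of -0.43), although it measured 505 to 532 CPM in primary and 527 to 550 in senescent libraries. Calls of these markers on the column-total scale are not given here. The part of the lower fibroblast sum in the members' values was not tested. Among the Holstein-like libraries only immortalized library 3 came near to the Simmental-like sums, at 65844 CPM against 456.4 to 1589 in the other 8. The labels call the replicates biological without naming separate cultures, so a p-value reflects only how far libraries of a stage lie apart, and that spread may be technical. Simmental-like senescent libraries 1 and 2 were close to sampling noise, with a chi-square of 1.36 per gene against 6.57 to 370.3 within the other stages, and with both summed as 1 library 68 genes met the rule. In bulk RNA, fewer cells of a type and less RNA per cell cannot be told apart.

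Every member was higher in each senescent library than in any of the 6 other Simmental-like libraries. The lowest senescent library was at least 4 times the highest other library for 43 members, and at least 2.13 times for all 70. The median senescent mean was 8.15 times the immortalized mean (4.03 to 740). Against the primary mean the median was 10.6 times (4.06 to 1005) over the 61 members with more than 3 primary counts. Another 9 members had 3 or fewer counts over all primary libraries. Together the members took 0.0324% to 0.0505% of all counts in primary, 0.418% to 0.439% in senescent and 0.0452% to 0.0526% in immortalized libraries.

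**Figure D1:**
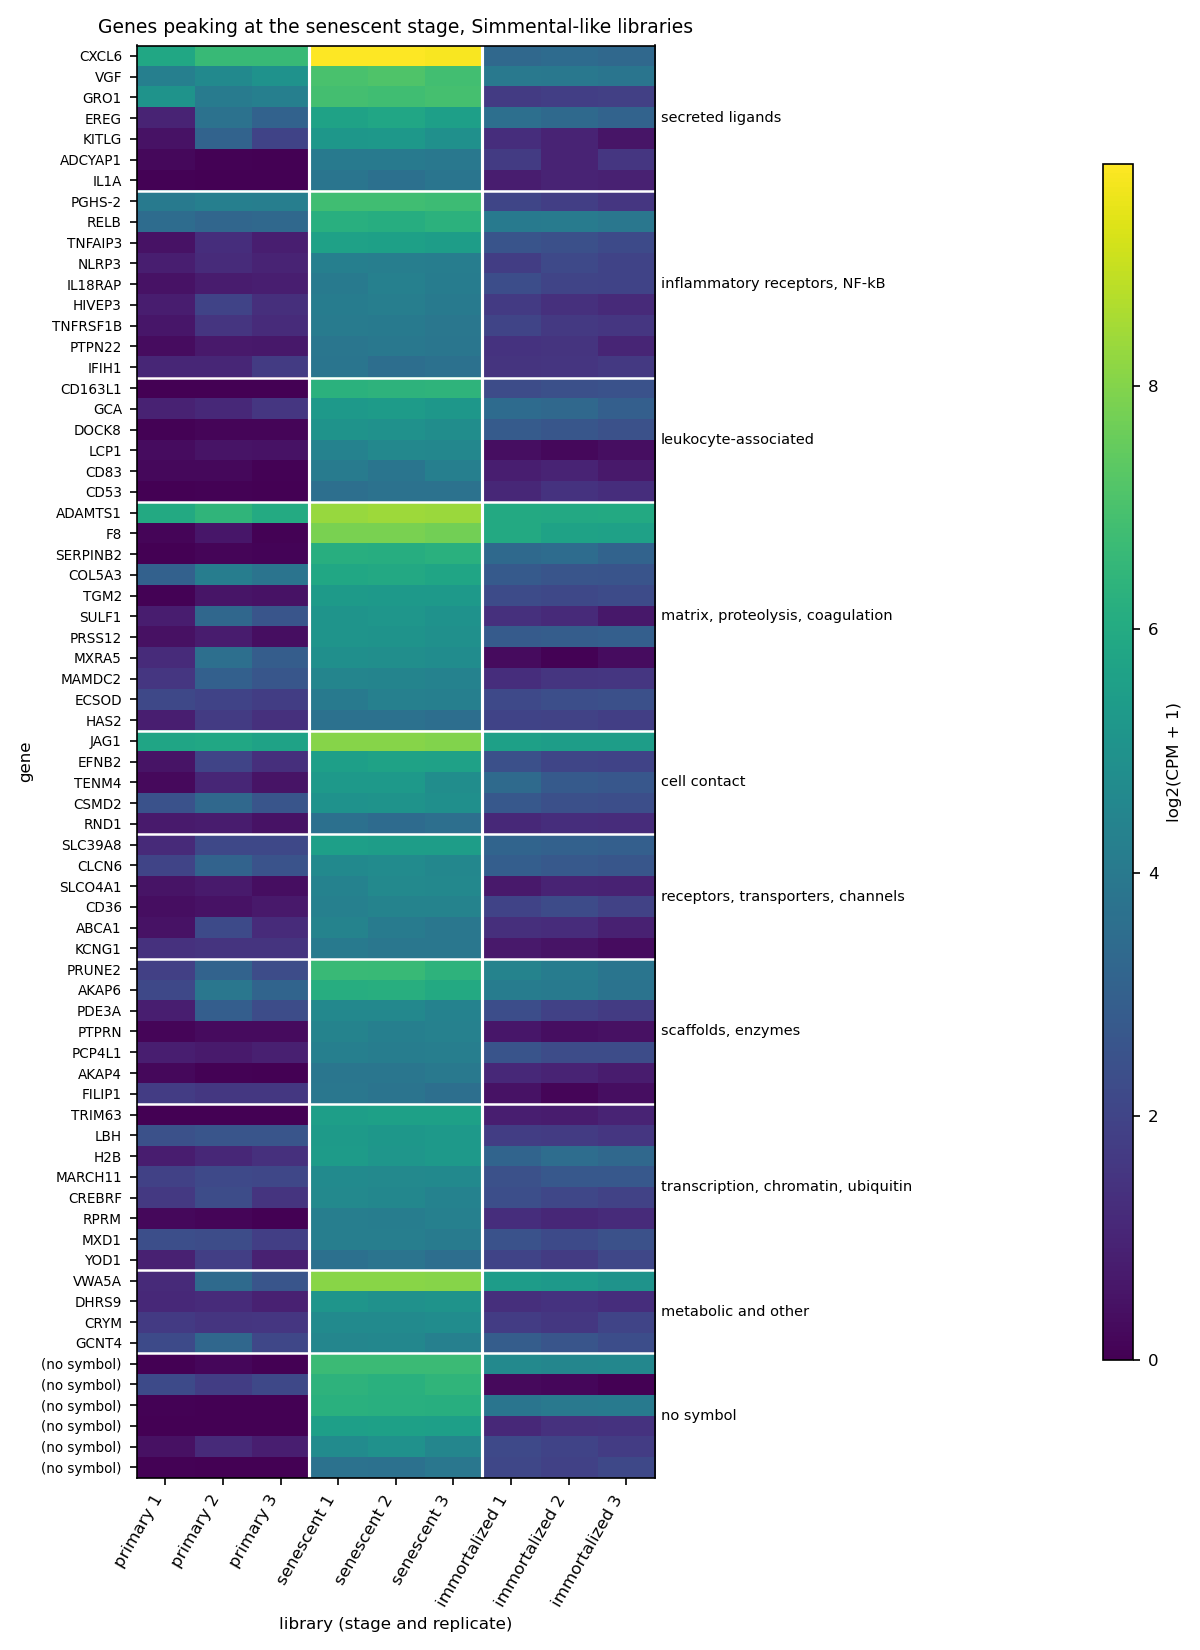
Level of 69 of the 70 genes (rows, grouped by function) in the 9 Simmental-like libraries (columns), as colour on a log2(CPM + 1) scale. The 3 senescent columns are brighter than the other 6 in every row, and the rows differ in whether primary or immortalized libraries are the darker ones.

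At the bounds of the rule, GCNT4 and MXD1 lay just inside, with smaller ratios of 4.03 and 4.04. UNC5B, PION and RNF19B lay just outside, at 4.00 (rounded up), 3.98 and 3.95. By level, RND1, HAS2 and YOD1 were just inside at means of 10.8, 11.3 and 11.6 CPM, and IL36A, ST8SIA4 and S1PR1 just outside at 9.90, 9.86 and 9.82 CPM. Another 4 genes, AJAP1, TRPC4, MMP9 and SLC32A1, met the level and both folds but had only 1 to 3 immortalized counts. MMP9, a gelatinase, measured 0.889, 0.345 and 0.598 CPM in primary, 10.4, 9.58 and 11 in senescent and 0, 0 and 0.0506 in immortalized libraries.

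Secreted ligands made up 7 members, and the chemokines among them had the largest ratios of senescent to immortalized level. CXCL6, a chemokine that attracts neutrophils, measured 56.7, 97.9 and 96.4 CPM in primary, 889.5, 907 and 853 in senescent and 9, 9.72 and 8.91 in immortalized libraries. GRO1, another chemokine of that family, measured 32.1, 16 and 18 CPM in primary, 118, 111 and 120.1 in senescent and 2.29, 2.55 and 2.67 in immortalized libraries. Both were lowest in the immortalized libraries, which did not overlap with the primary ones, and the senescent means were 95.9 and 46.5 times the immortalized means. GRO1 counts were partly not whole, as salmon gives where reads fit near-identical copies, so its level is uncertain.

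VGF, the precursor of several neuropeptides, measured 18.1, 24.4 and 30.8 CPM in primary, 127, 136 and 115 in senescent and 14.6, 14.2 and 13.1 in immortalized libraries. EREG, a ligand of the epidermal growth factor receptor, measured 0.988, 12 and 7.56 CPM in primary, 50.2, 55.4 and 45.3 in senescent and 11.1, 9.27 and 7.64 in immortalized libraries. KITLG, the ligand of the receptor tyrosine kinase KIT, measured 0.395, 7.67 and 2.94 CPM in primary, 35.9, 36.8 and 29.7 in senescent and 1.43, 0.947 and 0.456 in immortalized libraries. VGF was lower in every immortalized than in every primary library, whereas for EREG and KITLG these 2 stages overlapped, with primary library 1 far below libraries 2 and 3.

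ADCYAP1, which encodes the neuropeptide PACAP, measured 0.148, 0.0431 and 0 CPM in primary, 15.1, 15.2 and 14.2 in senescent and 2.25, 0.997 and 1.97 in immortalized libraries. IL1A, the interleukin 1 alpha precursor that can start the secretory programme from within the cell, measured 0.0494, 0 and 0 CPM in primary, 13, 11.3 and 13.3 in senescent and 0.714, 0.997 and 0.86 in immortalized libraries. For IL1A a single count was seen over all primary libraries, and the senescent level was 774.3 times that (95% counting interval 139 to 30624). Both genes were near 0 in primary libraries and stayed above them in all immortalized libraries.

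Receptors, sensors and regulators of inflammation made up 9 members. PGHS-2, the inducible cyclooxygenase that makes prostaglandins, measured 15.7, 17.9 and 17.2 CPM in primary, 110.2, 110.3 and 107 in senescent and 3.18, 2.54 and 1.97 in immortalized libraries. RELB, a subunit of NF-kB in its non-canonical branch, measured 10.1, 8.54 and 9.08 CPM in primary, 71.9, 69.6 and 78 in senescent and 15.8, 16.1 and 13.7 in immortalized libraries. TNFAIP3, an NF-kB target and brake also called A20, measured 0.395, 1.47 and 0.762 CPM in primary, 48.2, 46.7 and 43 in senescent and 4.94, 4.24 and 3.59 in immortalized libraries. These 3 did not return to 1 common level: PGHS-2 was below all primary libraries after immortalization, and RELB and TNFAIP3 were above them.

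NLRP3, the sensor of an inflammasome, measured 0.79, 1.34 and 0.979 CPM in primary, 17.9, 17.3 and 17 in senescent and 2.47, 3.44 and 2.94 in immortalized libraries. IL18RAP, a chain of the interleukin 18 receptor, measured 0.395, 0.69 and 0.762 CPM in primary, 15.6, 18.3 and 16.5 in senescent and 4.01, 3.09 and 2.94 in immortalized libraries. HIVEP3, a zinc finger protein that binds kB-like sites, measured 0.741, 2.89 and 1.52 CPM in primary, 16.4, 17.6 and 15.4 in senescent and 2.14, 1.6 and 1.27 in immortalized libraries. NLRP3 and IL18RAP were higher in each immortalized than in each primary library, and HIVEP3 overlapped between these stages. The other 3 were TNFRSF1B, the second receptor of tumour necrosis factor, PTPN22, a phosphatase best known from lymphocytes, and IFIH1, a sensor of double-stranded RNA, with senescent means of 6.47, 9.16 and 6.28 times the immortalized means.

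**Figure D2:**
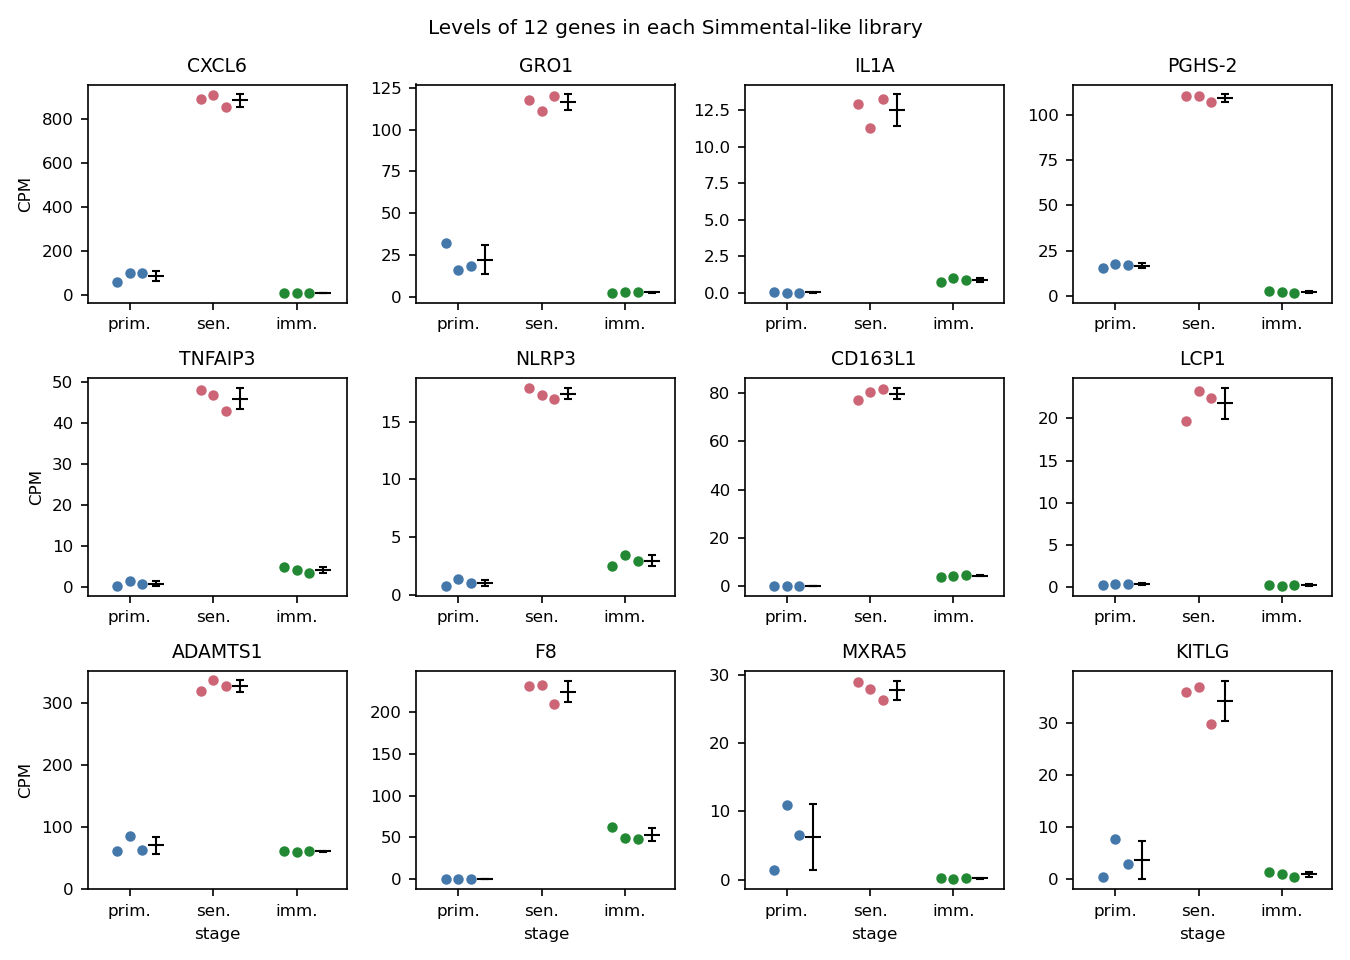
CPM of 12 named genes in each Simmental-like library (dots, 3 per stage: prim. for primary, sen. for senescent, imm. for immortalized), with the mean and SD of the 3 libraries as a black bar beside them, on axes of their own that include 0. In each panel the 3 senescent dots lie above all others; immortalized dots lie below the primary ones for CXCL6, GRO1 and MXRA5, and above them for F8, TNFAIP3 and CD163L1.

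Genes best known from leukocytes made up 6 members. CD163L1, a scavenger receptor, measured 0 CPM in all 3 primary libraries, 77.2, 80.7 and 81.9 in senescent and 3.9, 4.33 and 4.51 in immortalized libraries. Against 3 counts over the primary group, its senescent level was at least 1646-fold higher. CD163L1 counts were partly not whole in senescent libraries, so this level and the bound are uncertain. In all, 10 of 70 members had a count that was not whole in at least 1 Simmental-like library. GCA, a calcium-binding protein of neutrophils, measured 0.939, 1.21 and 1.96 CPM in primary, 39, 40.6 and 35.9 in senescent and 9.77, 9.07 and 6.83 in immortalized libraries. DOCK8, an activator of the small GTPase CDC42, measured 0.0494, 0.0862 and 0.109 CPM in primary, 31.7, 30 and 27.5 in senescent and 6.15, 5.19 and 4.45 in immortalized libraries. In these 3 genes every immortalized library lay above every primary one.

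LCP1, an actin-bundling protein of blood cells, measured 0.247, 0.431 and 0.381 CPM in primary, 19.7, 23.3 and 22.4 in senescent and 0.274, 0.15 and 0.304 in immortalized libraries. CD83, a surface protein of activated dendritic cells, measured 0.148, 0.172 and 0.0544 CPM in primary, 16.2, 13.1 and 17.8 in senescent and 0.769, 0.947 and 0.607 in immortalized libraries. CD53, a tetraspanin of leukocytes, measured 0, 0.0431 and 0 CPM in primary, 11, 11.9 and 12.2 in senescent and 1.15, 1.7 and 1.42 in immortalized libraries. LCP1 was low in primary and immortalized libraries, which overlapped, and CD83 and CD53 were above all primary libraries after immortalization. A list of 10 leukocyte markers summed to 16.8 to 20.7 CPM in primary, 14.7 to 16.6 in senescent and 8.07 to 12.7 in immortalized libraries. Within it TYROBP was at 0 in all 9 libraries, and PTPRC, which marks nearly all leukocytes, measured 0.0484, 0.0526 and 0.103 CPM in senescent libraries. Single markers moved in different directions. CD14 made up most of the primary sum and was lower in senescent libraries, 5.05 to 6.95 CPM after 13.4 to 15.5. The macrophage receptors CD163 (0.494 to 1.25 CPM in primary, 3.75 to 4.26 in senescent) and CSF1R (0.148 to 0.218, then 1.06 to 1.60) were higher there. Thus 2 of 5 tested markers were higher and 1 lower, where 28.3% and 29.7% of all tested genes were. After immortalization CD163 and CSF1R stayed at 4.45 to 4.91 and 1.15 to 1.67 CPM. The part of leukocyte RNA in the members' values was not tested.

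Matrix, proteolysis and coagulation genes were the largest group, with 11 members. ADAMTS1, a secreted metalloprotease that cleaves proteoglycans, measured 61.7, 85.5 and 63.5 CPM in primary, 318, 337 and 327 in senescent and 60.8, 60.3 and 61.2 in immortalized libraries. F8, coagulation factor VIII, measured 0.0988, 0.517 and 0.0544 CPM in primary, 232, 232 and 209.7 in senescent and 62.2, 49.2 and 48.2 in immortalized libraries. SERPINB2, plasminogen activator inhibitor 2, measured 0, 0.0862 and 0.0548 CPM in primary, 69.9, 69.1 and 74.2 in senescent and 9.28, 10.2 and 7.64 in immortalized libraries. F8 and SERPINB2 were close to 0 in primary libraries and kept an intermediate level after immortalization, whereas ADAMTS1 was abundant at all 3 stages. The F8 senescent mean was 1005 times the primary and 4.22 times the immortalized mean, the largest ratio to primary among members with more than 3 primary counts. Endothelial cells are a known source of factor VIII, and a list of 8 endothelial markers summed to 3.1 to 3.75 CPM in primary, 12.3 to 14.4 in senescent and 4.61 to 5.34 in immortalized libraries, with EMCN at 0 in all 9. Of the 5 that were tested 4 were higher in senescent than primary and lower in immortalized than senescent libraries (edgeR). Over all tested genes 8.33% passed both steps in these directions. The part of the endothelial markers in the F8 values was not tested. A second gene named SERPINB2, no member, had means of 5.6, 6.94 and 0.104 CPM, so reads could have been split between the copies.

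COL5A3, a chain of type V collagen, measured 7.36, 17.1 and 12.9 CPM in primary, 56.4, 60.8 and 53.9 in senescent and 5.87, 5.04 and 4.91 in immortalized libraries. TGM2, a transglutaminase that cross-links matrix proteins, measured 0.0494, 0.474 and 0.381 CPM in primary, 40.4, 39.2 and 38.6 in senescent and 3.73, 3.34 and 3.69 in immortalized libraries. SULF1, which removes sulfate from heparan sulfate, measured 0.741, 8.75 and 5.06 CPM in primary, 32.6, 34.6 and 31.1 in senescent and 1.59, 1.25 and 0.557 in immortalized libraries. Immortalized libraries were below all primary ones for COL5A3 and above them for TGM2, and for SULF1 the stages overlapped, with primary library 1 low. The other 5 were PRSS12, MXRA5, MAMDC2, the extracellular superoxide dismutase ECSOD and the hyaluronan synthase HAS2. Senescent means of those 5 were 4.31 to 72.2 times the primary means, lowest for MAMDC2 and highest for PRSS12.

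Endothelial markers were highest at the senescent stage as a sum, though not each of them: a list of 8 summed to 3.1 to 3.75 CPM in primary, 12.3 to 14.4 in senescent and 4.61 to 5.34 in immortalized libraries. TEK passed neither between senescent and primary nor between immortalized and senescent libraries (edgeR, adjusted p = 0.111 and 0.657). Its levels were 2.47 to 3.14 CPM in senescent and 1.10 to 2.68 in immortalized libraries. VWF, the carrier of factor VIII in blood, measured 5.85, 6.68 and 6.18 CPM in senescent and 1.33 to 2.37 in primary libraries. PECAM1 measured 0.544 to 0.692 CPM in primary, 1.64 to 2.16 in senescent and 0.405 to 0.659 in immortalized libraries. KDR was at 0 in primary libraries, 1.06 to 1.68 CPM in senescent and 0.253 to 0.399 in immortalized ones. ESAM measured 0 to 0.0544, 1.00 to 1.44 and 0.110 to 0.349 CPM in that order. EMCN was at 0 in all 9 libraries, and CDH5 did not pass 0.381 CPM in any of them. The part of these markers in the F8 values was not tested.

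Cell contact genes made up 5 members. JAG1, a ligand of Notch receptors, measured 53.6, 56.4 and 49.6 CPM in primary, 262, 260.2 and 248 in senescent and 47.5, 43.8 and 43.9 in immortalized libraries. EFNB2, a membrane-bound ligand of Eph receptors, measured 0.445, 3.02 and 1.52 CPM in primary, 45.7, 49.6 and 47.9 in senescent and 4.34, 3.19 and 2.94 in immortalized libraries. TENM4, a teneurin, measured 0.198, 1.08 and 0.435 CPM in primary, 38.4, 37.3 and 27.1 in senescent and 9.5, 5.83 and 5.36 in immortalized libraries. JAG1 was the only 1 of these 3 that was lower in every immortalized than in every primary library; TENM4 was higher and EFNB2 overlapped. CSMD2 measured 4.55, 9.01 and 5 CPM in primary, 31.5, 31.7 and 29 in senescent and 5.49, 4.24 and 4.2 in immortalized libraries. RND1, a protein that loosens cell adhesion, measured 0.642, 0.69 and 0.381 CPM in primary, 11.5, 9.84 and 11.1 in senescent and 1.21, 1.45 and 1.37 in immortalized libraries, so that immortalized libraries lay above the primary ones for RND1 and overlapped with them for CSMD2.

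Receptors, transporters and channels made up 7 members. SLC39A8, an importer of zinc and manganese, measured 1.24, 3.36 and 3.43 CPM in primary, 46.1, 43.7 and 43.5 in senescent and 8.01, 7.28 and 6.83 in immortalized libraries. CLCN6, a chloride-proton exchanger of late endosomes, measured 3.06, 7.67 and 4.79 CPM in primary, 24.7, 25.7 and 22.2 in senescent and 6.59, 5.68 and 5.21 in immortalized libraries. SLC39A8 stayed above all primary libraries after immortalization, and the 2 stages overlapped for CLCN6.

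SLCO4A1, an organic anion transporter, measured 0.445, 0.647 and 0.272 CPM in primary, 19.5, 23.7 and 23.1 in senescent and 0.604, 0.947 and 0.911 in immortalized libraries. CD36, a receptor for fatty acids and thrombospondin, measured 0.296, 0.388 and 0.598 CPM in primary, 18.6, 20 and 19.8 in senescent and 2.91, 3.74 and 2.78 in immortalized libraries. ABCA1, which exports cholesterol, measured 0.395, 3.66 and 1.31 CPM in primary, 20.2, 16.2 and 14 in senescent and 1.48, 1.35 and 0.86 in immortalized libraries. CD36 was above all primary libraries after immortalization, while ABCA1 ranged from 0.395 to 3.66 CPM among primary libraries alone. A list of 5 adipocyte markers was also highest at the senescent stage, at 38.7 to 50.8 CPM in primary, 64.4 to 66.5 in senescent and 32.2 to 36.3 in immortalized libraries, with ADIPOQ at 0 in the primary ones. Of 4 tested markers 2 were higher and 1 lower in senescent than primary libraries, where 28.3% and 29.7% of all tested genes were. CIDEC, a lipid droplet protein, measured 1.34 to 2.12 CPM in primary, 6.82 to 7.78 in senescent and 1.37 to 1.75 in immortalized libraries. FABP4 measured 13.7 to 22.1, 30.7 to 31.9 and 0.101 to 0.199 CPM in that order. FABP4 did not pass between senescent and primary libraries (edgeR, adjusted p = 0.291). PLIN was higher in senescent libraries and stayed high in immortalized ones, at 8.97 to 10.1 CPM after 7.63 to 7.88. PPARG was lower in senescent than primary libraries (log2 change of -0.68 with TMM scaling), at 18.1 to 19.4 CPM after 19.9 to 23.4. With total-count scaling, on which CPM rest, the median of all genes in this contrast shifts by 0.46. The calls of adipocyte markers with that scaling are not given here. The part of these markers in the CD36 and ABCA1 values was not tested. KCNG1, a modulatory potassium channel subunit, had a senescent mean of 8.22 times the primary and 33 times the immortalized mean.

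Scaffolds and signalling enzymes made up 7 members. PRUNE2 measured 2.67, 7.63 and 3.92 CPM in primary, 100.3, 98.4 and 81.2 in senescent and 19.9, 16.6 and 13.2 in immortalized libraries. AKAP6, which anchors protein kinase A, measured 3.41, 13.8 and 7.89 CPM in primary, 69.1, 70.1 and 61.4 in senescent and 16.2, 15.4 and 12.4 in immortalized libraries. PDE3A, a phosphodiesterase for cyclic AMP, measured 0.79, 6.6 and 3.92 CPM in primary, 22.8, 23.2 and 19.3 in senescent and 3.95, 2.74 and 2.28 in immortalized libraries. Library 3 was the lowest of the senescent libraries for all 3 genes, still far above the other stages.

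PTPRN, a protein of secretory granules, measured 0.0988, 0.216 and 0.218 CPM in primary, 19.98, 17.7 and 19 in senescent and 0.494, 0.299 and 0.354 in immortalized libraries. PCP4L1 measured 0.79, 0.647 and 0.816 CPM in primary, 18.1, 17.1 and 17.3 in senescent and 4.94, 3.89 and 3.9 in immortalized libraries. AKAP4, an anchor of protein kinase A known from the sperm tail, measured 0.148, 0.0431 and 0 CPM in primary, 13.5, 13.3 and 14.6 in senescent and 1.21, 0.947 and 0.658 in immortalized libraries. PTPRN and AKAP4 were barely detected in primary libraries, at 11 and 4 counts over the group. The remaining member was FILIP1, which binds filamin, with a senescent mean of 5.92 times the primary and 47.8 times the immortalized mean.

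Transcription, chromatin and ubiquitin genes made up 8 members. TRIM63, a ubiquitin ligase of striated muscle, measured 0 CPM in all 3 primary libraries, 44.9, 46.9 and 46.5 in senescent and 0.769, 0.698 and 0.962 in immortalized libraries. Its senescent level was at least 949.7-fold higher than 3 counts over the primary group. LBH, a transcriptional regulator, measured 4.4, 5.04 and 4.95 CPM in primary, 39.9, 35.4 and 38.7 in senescent and 2.42, 2.29 and 1.97 in immortalized libraries. The member named H2B, a histone gene, measured 0.741, 1.12 and 1.58 CPM in primary, 40.8, 34.7 and 37.5 in senescent and 7.96, 10.4 and 8.86 in immortalized libraries. TRIM63 and H2B stayed above all primary libraries after immortalization and LBH was below them in each. The table holds 16 genes named H2B; together they had means of 62.3, 326.9 and 196.1 CPM at the primary, senescent and immortalized stage, and near-identical copies make the split among them uncertain.

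MARCH11, a membrane-bound ubiquitin ligase, measured 2.72, 3.53 and 3.32 CPM in primary, 25.1, 23.5 and 24.2 in senescent and 4.45, 5.58 and 5.47 in immortalized libraries. CREBRF, a regulator of the unfolded protein response, measured 2.07, 3.88 and 1.8 CPM in primary, 23.7, 22.7 and 19.3 in senescent and 4.17, 3.29 and 2.78 in immortalized libraries. RPRM, a mediator of cell cycle arrest that p53 can induce, measured 0.148, 0.0862 and 0 CPM in primary, 17.3, 16.9 and 18.3 in senescent and 1.43, 1.15 and 1.32 in immortalized libraries. RPRM was close to 0 in primary libraries, at 5 counts over the group, whereas CREBRF was at similar levels in primary and immortalized ones. The others were MXD1, an antagonist of MYC, and the deubiquitinase YOD1, at 4.04 and 4.09 times the immortalized mean. Skeletal muscle markers were low throughout: a list of 8 summed to 0.634 to 1.04 CPM in primary, 1.6 to 2.12 in senescent and 0.506 to 0.798 in immortalized libraries, and their part in the TRIM63 values was not tested.

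Of 4 metabolic and other genes, VWA5A measured 1.24, 9.66 and 5 CPM in primary, 271, 271 and 263 in senescent and 42.7, 37.6 and 32.2 in immortalized libraries. DHRS9, a dehydrogenase of retinoids and steroids, measured 1.19, 1.34 and 0.87 CPM in primary, 34.3, 30.4 and 32.3 in senescent and 1.48, 1.75 and 1.42 in immortalized libraries. CRYM, a thyroid hormone-binding protein, measured 2.17, 1.9 and 1.9 CPM in primary, 25.3, 25.2 and 26.3 in senescent and 2.36, 2.04 and 3.09 in immortalized libraries. GCNT4, a glycosyltransferase of mucin-type sugars, measured 3.61, 8.66 and 3.26 CPM in primary, 22, 22.7 and 18.4 in senescent and 6.53, 5.09 and 4.05 in immortalized libraries. VWA5A kept an intermediate level in immortalized libraries, above all primary ones, and the same 2 stages overlapped for CRYM and GCNT4. The 6 members without a symbol had senescent means of 4.04 to 740 times their immortalized means.

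Replicates were closer to each other at the senescent stage than at the others. Among members at 1 CPM or more on average, the median coefficient of variation was 41.8% over primary (42 members), 5.87% over senescent (70) and 14.2% over immortalized libraries (58). Over all tested genes at that level it was 25.3%, 4.69% and 8.19%. Primary library 2 was the highest of its stage for 44 members and library 1 the lowest for 42, and the order 2 above 3 above 1 held for 45.7% of members and 42.5% of all tested genes.

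After immortalization some members were above and others below their primary level. The comparison of immortalized with primary libraries was not used by the rule, apart from its count minimum at the immortalized stage. In this comparison 32 of 70 members were higher in immortalized libraries, where 24.9% of all 13091 tested genes were, and 17 were lower, where 25.5% of all genes were (edgeR quasi-likelihood test, adjusted p under 0.05). The other 21 passed in neither direction. The median log2 change of the members was 0.60, that of all tested genes was 0.00 (rounded). Over the 61 members with more than 3 counts in each group, 23 were higher and 17 lower, since 9 of the 32 had 3 or fewer primary counts.

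F8 was 0.0988, 0.517 and 0.0544 CPM in primary and 62.2, 49.2 and 48.2 in immortalized libraries (log2 change of 7.48 ± 0.41, adjusted p = 2.25e-06). DOCK8 had a log2 change of 5.63 ± 0.26, adjusted p = 8.49e-07. In both genes the gap between the stages was far larger than the range within either. ADCYAP1, RPRM, PRSS12 and AKAP4 followed with log2 changes of 4.33 ± 0.61, 3.61 ± 0.46, 3.54 ± 0.24 and 3.44 ± 0.58, all higher in immortalized libraries. Single primary libraries weighed on these values: F8 was at 8.95 without primary library 2, and without primary library 1 ADCYAP1 was at 5.65, RPRM at 4.38 and AKAP4 at 4.77. PRSS12 is neurotrypsin, a secreted serine protease. For CD163L1 and TRIM63, with 0 primary counts, the immortalized level was at least 87.7-fold and at least 16.7-fold higher than 3 counts over the group. IL1A was 53.3 times its primary level of 1 count (95% counting interval 9.13 to 2146).

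In the other direction MXRA5, a matrix-remodelling protein, was 1.33, 10.9 and 6.47 CPM in primary and 0.220, 0.0499 and 0.253 in immortalized libraries (log2 change of -5.37 ± 0.78, adjusted p = 0.000616). Without primary library 2 its change was -4.76. CXCL6 and GRO1 had log2 changes of -3.47 ± 0.15 and -3.49 ± 0.35. These 2 chemokines and PGHS-2 (log2 change of -3.03 ± 0.16, adjusted p = 1.85e-06) were lower in every immortalized than in every primary library. FILIP1 had a log2 change of -3.32 ± 0.36, adjusted p = 0.000109. With all 18 libraries in one edgeR fit, the calls of FILIP1 (adjusted p = 0.0808), MXRA5 (0.0746), ADCYAP1 (0.0724), RPRM (0.0883) and PRSS12 (0.0959) were lost. SULF1 had a log2 change of -2.34 ± 0.68, adjusted p = 0.0201, and its stages overlapped. The SULF1 call was lost in that fit (0.185), with limma-voom (0.0747), with the replicate block (0.0522), without primary library 2 (-1.66, adjusted p = 0.0518) and without immortalized library 2 (0.0585) or 3 (0.0701).

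Read against the 24.9% of all genes that were higher and the 25.5% that were lower, immortalized libraries were higher than primary ones for 5 of 6 leukocyte-associated genes and lower for none, and higher for 4 and lower for 1 of 9 inflammatory receptors, sensors and regulators. Of 7 secreted ligands 2 were higher and 4 lower, and of 11 matrix, proteolysis and coagulation genes 4 were higher and 5 lower. The counts were 2 and 2 of 5 for cell contact genes, 2 and 2 of 7 for receptors and transporters, 3 and 1 of 7 for scaffolds, 4 and 1 of 8 for transcription and ubiquitin genes, 1 and 0 of 4 for metabolic genes, and 5 and 1 of 6 for genes without a symbol. These counts include the 9 members with 3 or fewer primary counts: CD163L1, CD53, TRIM63, SERPINB2, IL1A and others without a symbol. The rule set a count minimum for immortalized libraries only. That minimum kept out AJAP1, TRPC4, MMP9 and SLC32A1, whose immortalized means were below their primary means. Differences between these functions were not tested, and several of the counts lie near the shares over all genes. With total-count scaling, which shifts the median of all genes by 0.30, 33 members were higher and 12 lower.

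**Figure D3:**
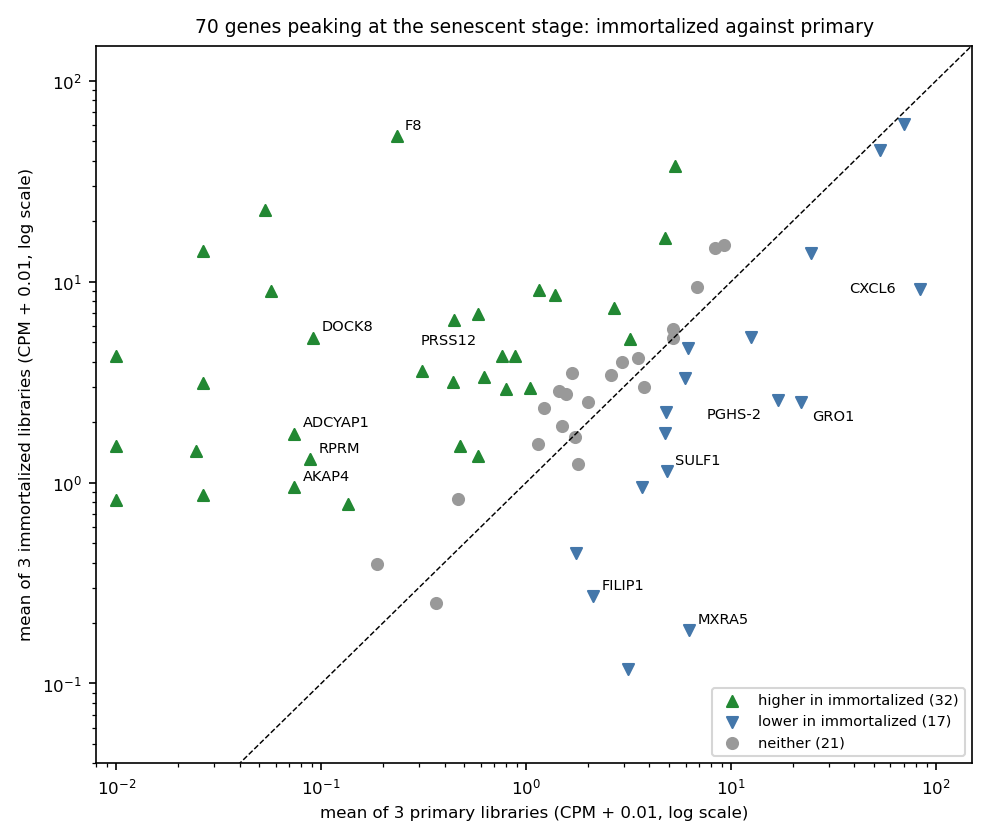
Mean of 3 immortalized against mean of 3 primary Simmental-like libraries for the 70 genes, in CPM + 0.01 on log axes, with the line of equal levels dashed. The 32 genes higher in immortalized libraries (upward triangles) include F8 and several with near 0 primary CPM, the 17 lower ones (downward triangles) include MXRA5, CXCL6 and GRO1, and 21 grey genes passed in neither direction.

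In the Holstein-like libraries, which the rule did not use, the members showed no common peak at the senescent stage. These libraries carried large amounts of organ transcripts. Skeletal muscle markers summed to 145509 to 147010 CPM in the 3 primary libraries and to 19490.5 CPM in senescent library 1. That senescent library also held 4 heart genes at a sum of 10838 CPM and the 5 liver genes at 2226 CPM. In addition, 5 liver genes summed to 117981 and 90058 CPM in senescent libraries 2 and 3 and to 97689 CPM in immortalized library 1, and 5 kidney genes to 5552 CPM in immortalized library 2. Of the 70 members, 40 reached 10 CPM in at least 1 of the 9 libraries and 4 were at 0 in all of them. Of these 40, 16 were highest in immortalized library 3, 8 in senescent library 1 and 7 in immortalized library 2.

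None of the 6 members of highest mean level had all 3 senescent libraries above the other 6. F8 measured 0 CPM in all 3 primary libraries, 62, 919 and 1840 in senescent and 854, 32.5 and 5.01 in immortalized libraries. CD36 measured 156, 147 and 166 CPM in primary, 1368, 13.5 and 24.7 in senescent and 19, 35.2 and 1694 in immortalized libraries. TRIM63 measured 256, 279 and 264 CPM in primary, 118, 0.155 and 0.075 in senescent and 0.168, 0.091 and 0.358 in immortalized libraries. F8 was highest in the 3 libraries with the most liver transcripts, and TRIM63 was high in those with muscle and heart transcripts. CD36 was high in senescent library 1 and immortalized library 3. ABCA1 measured 6.85, 13 and 11.2 CPM in primary, 14.6, 66.6 and 293 in senescent and 147, 37.8 and 149.8 in immortalized libraries. TGM2 measured 17.8, 17 and 19.7 CPM in primary, 279.7, 18.7 and 80.5 in senescent and 42.8, 107 and 80.3 in immortalized libraries. JAG1 measured 9.59, 9.54 and 10.5 CPM in primary, 44.7, 35.2 and 68.3 in senescent and 38.2, 115 and 224 in immortalized libraries. JAG1 was higher in each senescent than in each primary library, but its highest values were in immortalized libraries 2 and 3.

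After a filter on low counts 50 of the 70 members were tested in this line. Of these, 8 were higher in senescent than primary libraries, where 9.31% of 13312 tested genes were, and 0 were lower, where 5.9% were (edgeR). All 8 were VWA5A, CRYM, JAG1, TNFRSF1B, IFIH1, LCP1, YOD1 and SLC39A8, with adjusted p from 0.0167 for SLC39A8 to 0.0404 for CRYM. JAG1 had a log2 change of 1.92 ± 0.46 and IFIH1 one of 3.79 ± 0.91. At an unadjusted p under 0.05, 20 were higher and 1 lower, and over all tested genes 4922 passed in either direction. DESeq2 called 15 members higher and 1 lower and limma-voom 0 and 1, where over all genes they called 3942 and 787 in either direction. The 8 calls fell to 0 without any 1 of the 3 primary libraries or senescent library 2, and to 1 without senescent library 3. Without senescent library 1, 11 were higher and 5 lower. The part of the organ transcripts in these differences was not tested.

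Between immortalized and senescent Holstein-like libraries 0 of 50 members were higher and 0 lower by edgeR, as were 0.0% of all tested genes in either direction. On simulated counts of senescent against primary libraries, the fit of this line recovered 0 of 100 genes changed 4-fold. A lack of calls in this line therefore does not show unchanged levels. At an unadjusted p under 0.05, 7 members were higher and 1 lower, and over all tested genes 972 passed in either direction. DESeq2 and limma-voom called none of the 50, and over all genes they called 34 and 0. In the immortalized library 3, where fibroblast markers were abundant, several members were at their highest of the 9 libraries, among them JAG1 at 223.5, TNFRSF1B at 121.5, LCP1 at 202.5, CD53 at 90.6 and MXRA5 at 96.3 CPM. Leukocyte markers summed to 3690 CPM there, against 89.2 to 1255 CPM in the other 8 libraries. Endothelial markers summed to 5491 CPM against 184.7 to 979.5, adipocyte markers to 2092 against 4.42 to 57.3, and melanocyte and Schwann cell markers to 878.4 against 30.9 to 265.2. The part of these cell types in the members' values was not tested.

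**Figure D4:**
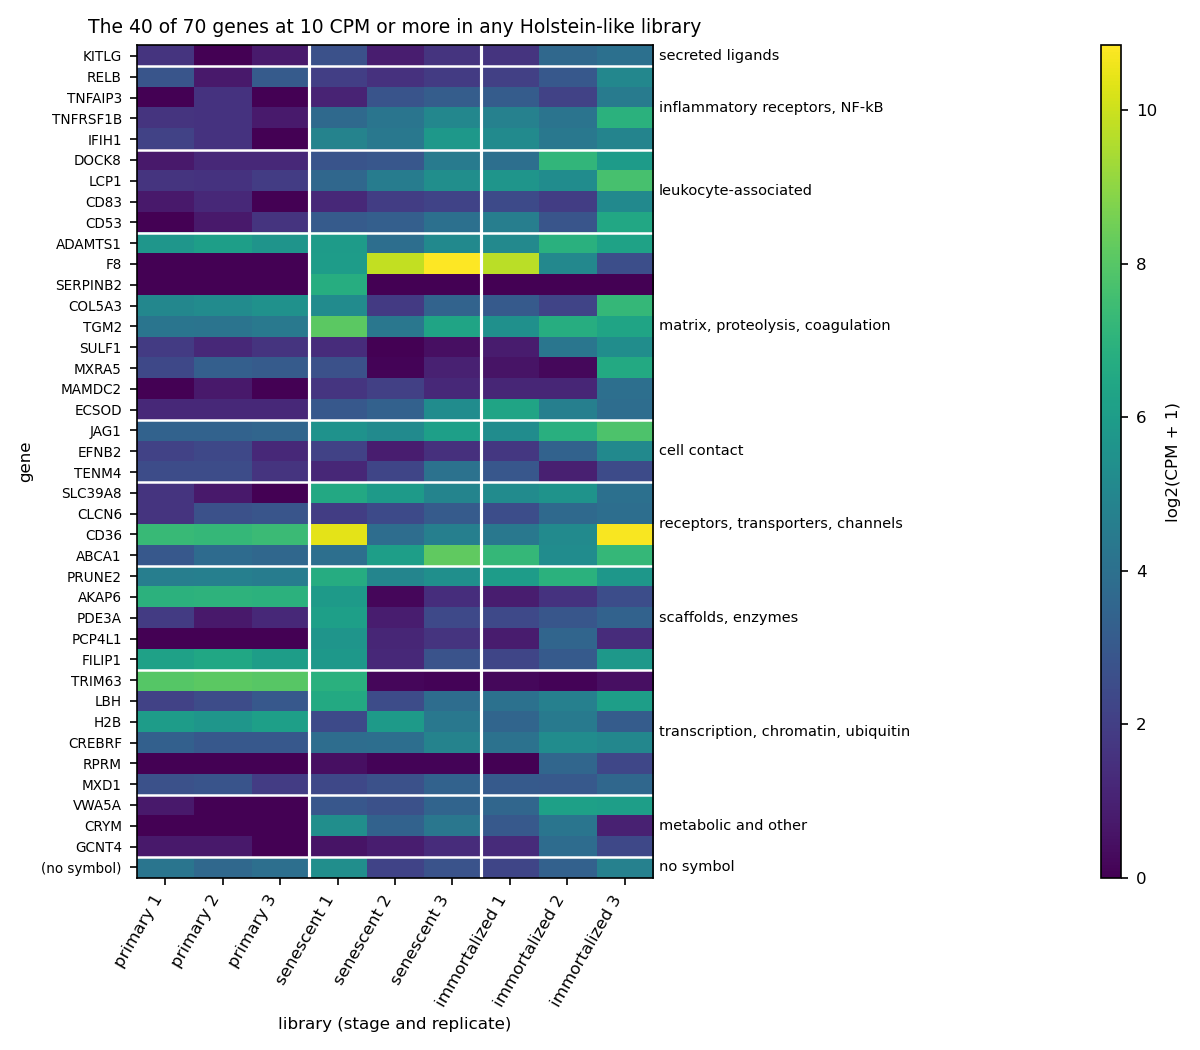
Level of the 40 members at 10 CPM or more in at least 1 Holstein-like library (rows, grouped by function) in the 9 libraries of that line (columns), as colour on a log2(CPM + 1) scale. F8 is brightest in senescent libraries 2 and 3 and immortalized library 1, and TRIM63 in the 3 primary libraries.

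In the Simmental-like line, the pathways that hold members were also counted without them. Only lists with at least 2 members are described, and the lists were drawn up with results of these data known. Over all 13091 tested genes, 28.3% were higher and 29.7% lower in senescent than primary libraries, and 16.4% were higher and 16.1% lower in immortalized than senescent libraries. Both higher in senescent than primary and lower in immortalized than senescent were 8.33% of genes (1091).

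NF-kB regulators and targets, the list of RELB, TNFAIP3 and PGHS-2, held 17 other tested genes. Of these, 11 were higher and 2 lower in senescent than primary libraries, and 1 was higher and 10 lower in immortalized than senescent libraries. The median log2 change was 0.76 at the first step and -0.87 at the second, against 0.01 and 0.00 (rounded) over all genes. Both steps held for 8 of the 17, among them the subunit NFKB1, with means of 39.4, 104.4 and 50.9 CPM, and the cell survival gene BIRC3, with 17.6, 256.8 and 74.5 CPM. Without senescent library 3, 7 of the 17 were higher at the first step. Without primary library 3 or any 1 senescent library 1 was lower there, without primary library 1 there were 2 higher at the second step, and with total-count scaling 14 were higher and 0 lower at the first step.

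The genes of that list with the largest changes were low. CX3CL1, a membrane-bound chemokine, went from 0 primary counts to a senescent mean of 1.19 CPM, at least 24.4-fold higher. TNFRSF9, a receptor of the tumour necrosis factor family, had means of 0.0165, 1.55 and 0 CPM. Its senescent level was at least 29.8-fold above that of immortalized libraries. REL, a subunit of NF-kB, had means of 0.0165, 2.18 and 2.63 CPM, so its immortalized mean was not below the senescent one. The adhesion molecule ICAM1, a classical NF-kB target, fell by 3.06 ± 0.28 on the log2 scale between senescent and immortalized libraries (adjusted p = 0.000111), from 8.44 to 0.902 CPM, after 10.6 CPM in primary ones. With all 18 libraries in one fit, CX3CL1 did not pass between immortalized and senescent libraries (edgeR, adjusted p = 0.0732).

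Senescence secretory factors, the list of IL1A, GRO1, CXCL6 and EREG, held 24 other tested genes. At the first step 11 were higher and 8 lower, and at the second 4 were higher and 16 lower, with median log2 changes of 0.37 and -1.17. Both steps held for 8, among them interleukin 6 (IL6), with means of 0.573, 6.26 and 3.30 CPM, and CCL5, a chemokine for T cells, with 0.113, 4.05 and 0.328 CPM. The growth factor HGF was higher at the first step, with means of 0.0921, 25.0 and 24.5 CPM. IGFBP7, which binds insulin-like growth factors, was higher at both steps, with means of 5.19, 233.7 and 532.7 CPM. CCL20, another chemokine, went from 0 primary counts to a mean of 2.00 CPM in senescent libraries, at least 41.2-fold higher. CXCL3 dropped by 3.81 ± 0.30 (adjusted p = 5.07e-05) from senescent to immortalized libraries. Without primary library 3 or any 1 senescent library, 5 of the 24 were lower at the first step, and with total-count scaling 14 were higher and 4 lower. With all 18 libraries in one fit the second step did not pass for CCL5 (edgeR, adjusted p = 0.0895) or CCL20 (0.0655).

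Matrix proteases and inhibitors, the list of ADAMTS1 and SERPINB2, mostly went the other way at the first step. Of 32 other tested genes 7 were higher and 17 lower in senescent than primary libraries, and 3 were higher and 12 lower in immortalized than senescent ones, with medians of -0.42 and -0.50. Both steps of the members' pattern held for 5, including the metalloprotease ADAMTS12, with means of 0.384, 7.74 and 0.206 CPM, and MMP9. MMP23B fell by 4.56 ± 0.22 at the first step (adjusted p = 1.79e-06), from 47.4 to 2.82 CPM. The lysosomal protease CTSZ fell by 3.73 ± 0.21 at the first step and by 7.60 ± 0.32 at the second, with means of 259.4, 27.5 and 0.119 CPM. Without primary library 1, 20 of the 32 were lower at the second step, and with total-count scaling 9 were higher and 11 lower at the first.

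Growth factors and receptors, the list of EREG and KITLG, showed 14 higher and 9 lower of 27 other tested genes at the first step, and 7 higher and 7 lower at the second. The members' pattern of both steps held for 6. FGF2, basic fibroblast growth factor, had means of 50.2, 106.6 and 5.82 CPM and fell by 4.03 ± 0.12 at the second step (adjusted p = 9.29e-07). FGF5 went on upward, with means of 0.0144, 3.67 and 31.0 CPM (3.24 ± 0.19 at the second step, adjusted p = 9.60e-06). FGF1 had 0 primary counts and was at least 38.0-fold higher in senescent libraries. Its second step did not pass with all 18 libraries in one fit (edgeR, adjusted p = 0.272). Without primary library 1, 12 of the 27 were lower at the second step, without senescent library 1, 4 were higher there, and with total-count scaling the counts were 15 and 4 at the first and 4 and 8 at the second step.

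**Figure D5:**
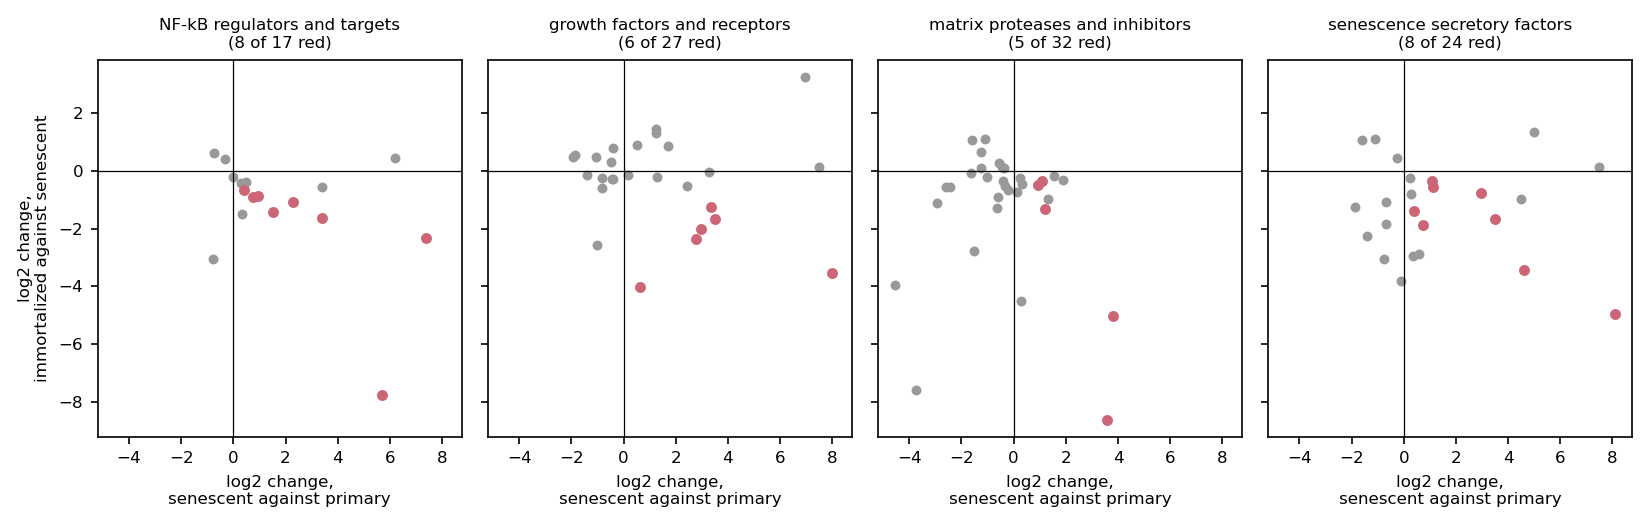
Fitted log2 change of each non-member gene of 4 lists between senescent and primary (horizontal) and between immortalized and senescent Simmental-like libraries (vertical), with genes that passed the test as higher and then lower in red. Red genes are 8 of 17 for NF-kB, 6 of 27 for growth factors, 5 of 32 for matrix proteases and 8 of 24 for secretory factors; fitted changes of genes with 3 or fewer counts in a group are no bounds.

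By gene order in RefSeq, 62 members could be placed, on 23 chromosomes. Members lay near each other in 4 pairs. CXCL6 and GRO1 are separated by 4 genes, PPBP, PF4, CXCL2 and CXCL3, and GRO1 and EREG by 2, MTHFD2L and EPGN. RefSeq lists CXCL6 as a synonym of CXCL5, and its placement rests on that synonym. The level of CXCL2 is not given here. In this stretch PPBP, PF4 and EPGN did not pass 0.346 CPM in any Simmental-like library. CXCL3 had means of 56.7, 74.5 and 4.75 CPM and MTHFD2L of 3.73, 9.62 and 5.93 CPM, so neither met the rule. GCA and IFIH1 are direct neighbours. TNFRSF1B and CLCN6 have 7 genes between them. Among those, the natriuretic peptide gene NPPB had means of 0.0165, 2.02 and 0.156 CPM, below the level that the rule asks for.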

How the data were processed

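The data are RNA-seq libraries (18 in all) from a Holstein-like and a Simmental-like fibroblast line, with 3 libraries for each of 3 stages. Per the labels' protocols, RNA came from RNeasy kits and libraries from NEBNext Ultra II kits. The deposited table holds estimated counts per gene; its name says that the authors merged them from salmon output. Submitters' processing notes name the build UMD 3.1. No salmon version, annotation or strand setting is given in the sources used here. From 1.01% to 7.18% of values in a library were fractions, and values were rounded for the tests.

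CPM were computed from these counts by column total. The rule was applied to mean CPM of Simmental-like libraries. The members, their function groups and all gene lists were chosen with earlier results of these data known. Separate models were fitted for the 2 lines, on 9 libraries each, using R 4.3.3 and edgeR 4.0.16 with filterByExpr, TMM scaling and the robust quasi-likelihood F-test. P-values were adjusted by Benjamini-Hochberg over all tested genes, with a threshold of 0.05. Fold changes against a group with 0 counts are lower bounds against 3 counts over the group, and with 1 to 3 counts ratios carry a 95% counting interval, which covers counting error only. Sequence tables and a genome were not used here, so no promoter motifs were searched. Only gene order was taken from RefSeq (ARS-UCD2.0).

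Given in every Simmental-like library were up to 6 members with a symbol per function group, by highest senescent mean. Values of 1 member are not reported here. Also named were the 3 on either side of the fold and level bounds, the 6 largest changes per direction between immortalized and primary libraries with more than 3 counts in each group, the 6 highest members in Holstein-like libraries, and up to 3 other genes per list and contrast with the largest change past the threshold. The 4 genes kept out by the count minimum, the Holstein-like calls examples of genes that were higher and then lower, and single cell type markers were named after their values were seen.

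Replicate numbers did not pair libraries: deviations of same-numbered Simmental-like libraries correlated at -0.499 to 0.182. On simulated counts, the Simmental-like fit of senescent against primary recovered 97 of 100 genes changed 4-fold and 65 of 100 changed 2-fold, with 7 false calls among 13091 genes. The Holstein-like one recovered 0 of 100 at either size, with 0 false calls among 13312. Alternatives were other rule bounds, RLE, upper-quartile and total-count scaling, no filter and a filter of 5 CPM in 3 libraries, DESeq2 1.42.0, limma-voom (limma 3.58.1), all 18 libraries in one fit, a replicate block, summing senescent libraries 1 and 2, and leaving out each library.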

Additional observations from a re-analysis of the deposited data

How the results depend on the processing

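The number of members depended on the rule: it was 123 with a fold of 3, 36 with a fold of 6, 108 with a level of 5 CPM, 46 with a level of 20 CPM, and 43 when the lowest senescent library was set against the highest other one. With TMM library sizes 50 genes met the rule, all of them members, and leaving out single libraries gave 64 to 80. Between immortalized and primary Simmental-like libraries, 16 members were higher and 5 lower with all 18 libraries in one fit, against 32 and 17, and leaving out single libraries gave 30 to 37 higher and 14 to 19 lower. The 8 Holstein-like members higher in senescent than primary libraries became 15 with DESeq2, 0 with limma-voom, 21 with all 18 libraries and 1 with the replicate block. Leaving out single libraries gave 0 to 11 higher and 0 to 5 lower, and DESeq2, limma-voom and all 18 libraries gave 1 lower each. With the replicate block, 31 members were higher and 15 lower in immortalized than primary Simmental-like libraries, and replicate numbers are shared only as names.

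Over the 4 lists without their members, 40 genes were higher in senescent than primary libraries, 25 with the stricter filter, which tests fewer genes, and 19 with all 18 libraries. Lower were 33, 17 with total-count scaling and 6 with all 18 libraries. Between senescent and immortalized libraries 13 were higher, 8 with total-count scaling and 1 with all 18 libraries, and 42 were lower, 14 with all 18 libraries. Leaving out single libraries gave 34 to 47, 27 to 38, 9 to 18 and 36 to 59 in this order. The replicate block gave 38, 29, 12 and 40. The cause of these differences was not tested, and no value changed direction under any alternative run. Depth was lowest in the 3 Holstein-like primary libraries, where 3 counts are 2.05 to 2.11 CPM, against 0.213 to 0.273 CPM in the other 6 of that line and 0.129 to 0.165 CPM in Simmental-like ones.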
